A study of Mus musculus with 12 samples.

Results

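The 36 genes described here encode the constitutive 26S proteasome and Psmb11, the thymus-specific catalytic subunit beta5t. They are the genes whose symbol begins with Psma, Psmb, Psmc or Psmd and ends in a number, without the 3 inducible catalytic subunits Psmb8, Psmb9 and Psmb10, out of 50600 gene identifiers in the deposited tables. Polyadenylated RNA was sequenced from medullary thymic epithelial cells (mTECs) of mice 6 to 8 weeks old, in 6 libraries of MHCII hi cells (mTEC hi) and 6 libraries of MHCII lo cells (mTEC lo), sorted by surface MHC class II. The Psmb11-deficient (KO) mice carried the strain name B6.B6CB-Psmb11tm1Smta with genotype Psmb11-/-, and the WT mice the same strain name with genotype Psmb11+/+. All labels agreed on the genotype in 8 libraries, 2 KO and 2 WT for mTEC hi and the same for mTEC lo. For 4 more, title and source name gave opposite genotypes. These 4 entered the comparison of cell types as a class of their own, and no main comparison of genotypes. Each library held between 38791960 and 86793594 reads assigned to genes. Nothing in the labels says that libraries of a group came from different mice or sorts, so each p-value measures a spread between libraries that could be technical. No 2 libraries of a cell type agreed within counting noise (lowest chi-square per gene 7.77).

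The 26S proteasome degrades proteins marked with ubiquitin. Its 20S core is a barrel of alpha rings (Psma1 to Psma7) around beta rings (Psmb1 to Psmb7), in which Psmb6, Psmb7 and Psmb5 carry the cutting sites beta1, beta2 and beta5. The 19S particle caps the barrel: its base has the ATPases Psmc1 to Psmc6, which unfold substrates, with Psmd1, Psmd2 and the ubiquitin receptor Psmd4, and its lid holds Psmd14, the enzyme that removes ubiquitin. Psmd5, Psmd9 and Psmd10 are chaperones that help build the base, and Psma8 replaces Psma7 in the proteasome of the testis. In cells of the thymic cortex beta5t takes the place of beta5, and the peptides that such thymoproteasomes make serve the positive selection of CD8 T cells. In antigen-presenting cells, mTECs among them, the inducible subunit beta5i (Psmb8) can take the same place.

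The members lay on 16 chromosomes, with at most 6 on 1 of them. Psmb5 and Psmb11 were the closest pair. In GENCODE M21 on GRCm38, Psmb5 runs on the minus strand at chr14:54614119-54618022 in 3 exon blocks, and Psmb11 on the plus strand at chr14:54621433-54629556 in 2 exon blocks. Their ends nearest to each other are their 5′ ends in this annotation, 3410 bases apart with no annotated gene between. RefSeq starts Psmb11 3877 bases further downstream. The next closest pair of members, Psmb4 and Psmd4 on chromosome 3, was 145732 bases apart.

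The promoters of this pair and of Psmb6 are shown because the transcription factors NFE2L1 and NFE2L2, known to switch on proteasome genes when proteasomes are blocked or under oxidative stress, bind the element TGACNNNGC with small MAF proteins. Each stretch runs 5′ to 3′ from 250 bases before to 50 bases after the RefSeq start on GRCm38.p6, and capitals mark matches to TGACNNNGC:
Psmb11, chr14:54625060-54625359, plus strand: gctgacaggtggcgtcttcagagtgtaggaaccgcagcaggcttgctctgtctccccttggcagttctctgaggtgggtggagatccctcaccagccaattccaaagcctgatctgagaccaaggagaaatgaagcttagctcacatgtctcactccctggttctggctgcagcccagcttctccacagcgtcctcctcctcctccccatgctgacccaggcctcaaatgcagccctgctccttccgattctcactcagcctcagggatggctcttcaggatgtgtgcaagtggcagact
Psmb5, chr14:54617946-54618245, minus strand: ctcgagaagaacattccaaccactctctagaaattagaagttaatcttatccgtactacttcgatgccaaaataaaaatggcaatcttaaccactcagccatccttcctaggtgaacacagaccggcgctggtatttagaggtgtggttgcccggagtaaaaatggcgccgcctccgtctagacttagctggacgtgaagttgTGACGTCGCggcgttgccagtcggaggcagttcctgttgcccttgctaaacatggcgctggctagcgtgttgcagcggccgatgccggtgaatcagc
Psmb6, chr11:70525107-70525406, plus strand: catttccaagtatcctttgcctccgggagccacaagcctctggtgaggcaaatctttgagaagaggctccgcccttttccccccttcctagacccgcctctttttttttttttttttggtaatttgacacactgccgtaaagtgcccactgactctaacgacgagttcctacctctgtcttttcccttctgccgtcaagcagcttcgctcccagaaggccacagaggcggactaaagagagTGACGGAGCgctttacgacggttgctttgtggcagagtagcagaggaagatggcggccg
The match lay 47 bases before the start in Psmb5 and 9 bases before it in Psmb6, and no match stood in the window of Psmb11. Searched on both strands, 5 of the 29 members in the RefSeq table held a match (17.2%), beside 14.0% of the 27025 promoters in that table. The other holders were Psmd9 (31 bases before the start), Psmc6 and Psmd12 (227 and 247 bases before it). In the last 150 bases of the window the shares were 10.3% of members and 8.26% of all promoters. A match is a description of letters and no measured binding site.

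Psmb11 checks the genotype labels. In mTEC hi it had 53 and 60 reads in the KO libraries and 867 and 320 reads in the WT libraries, which is 0.847 and 1.30 CPM in KO and 10.3 and 7.54 CPM in WT. CPM are read counts relative to the library total, scaled here between libraries by TMM. The KO mean was 12.05% of the WT mean, and the log2 fold change was -3.07 (SE 0.31), with an adjusted p of 0.00457 in the edgeR quasi-likelihood test. In mTEC lo it had 105 and 68 reads in the KO libraries and 683 and 414 reads in the WT libraries, or 1.63 and 1.17 CPM in KO and 12.2 and 7.51 CPM in WT. The KO mean was 14.2% of the WT mean there, and the log2 fold change was -2.81 (SE 0.29, edgeR adjusted p = 0.00814). Both KO libraries lay below both WT libraries in each cell type. Reads are summed over the whole gene, so the files do not show which stretch of it the remaining reads of the KO libraries come from. In mTEC hi the call was lost without the library titled KO 1 (log2 fold change -2.77, adjusted p = 0.448) and without the library titled WT 2 (log2 fold change -2.82, adjusted p = 0.194), fits in which the lone library of a group is taken to vary like the other groups.

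In the 4 libraries with conflicting labels Psmb11 followed the title. In mTEC hi it had 1.12 CPM in the library titled KO 3 and 8.16 CPM in the library titled WT 1. In mTEC lo it had 1.26 CPM in the library titled KO 3 and 7.10 CPM in the library titled WT 1. The libraries titled KO lay within the range of the undisputed KO libraries, 0.847 to 1.63 CPM, and those titled WT lay above it. Psmb11 did not pass the test between cell types: the log2 fold change of mTEC hi over mTEC lo was -0.11 (SE 0.40, edgeR adjusted p = 0.798).

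At the beta5 position Psmb11 was the scarcest of the 3 exchangeable subunits, and Psmb8 the most abundant, in every library. Levels of different genes are compared per length, in TPM, the length-corrected unit the authors deposited. In WT libraries Psmb11 had 3.95 and 2.98 TPM in mTEC hi and 3.67 and 2.41 TPM in mTEC lo. Psmb5 had 167 and 173 TPM in the same mTEC hi libraries and 119 and 113 TPM in the same mTEC lo libraries. Psmb11 was therefore at 2.37% and 1.72% of Psmb5 in WT mTEC hi, and at 3.08% and 2.13% in WT mTEC lo. In KO libraries Psmb11 had 0.20 and 0.59 TPM in mTEC hi and 0.41 and 0.32 TPM in mTEC lo, between 0.112% and 0.336% of Psmb5.

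Psmb8 exceeded Psmb5 in all 12 libraries, with a TPM ratio of 1.47 ± 0.0485 in mTEC hi and 1.72 ± 0.124 in mTEC lo (SD, n = 6 each). The ratio did not overlap between the cell types. Within mTEC lo it was 1.622 and 1.572 in KO libraries and 1.795 and 1.834 in WT libraries. With conflicting labels it was 1.64 in the library titled KO 3 and 1.86 in the library titled WT 1, so the libraries titled KO lay below those titled WT. In mTEC hi the ratio was 1.39 and 1.49 in KO libraries and 1.46 and 1.48 in WT libraries, and the genotypes overlapped. With 2 libraries against 2, an exact permutation test of these ratios cannot go below 0.333, so none was run.

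**Figure D1:**
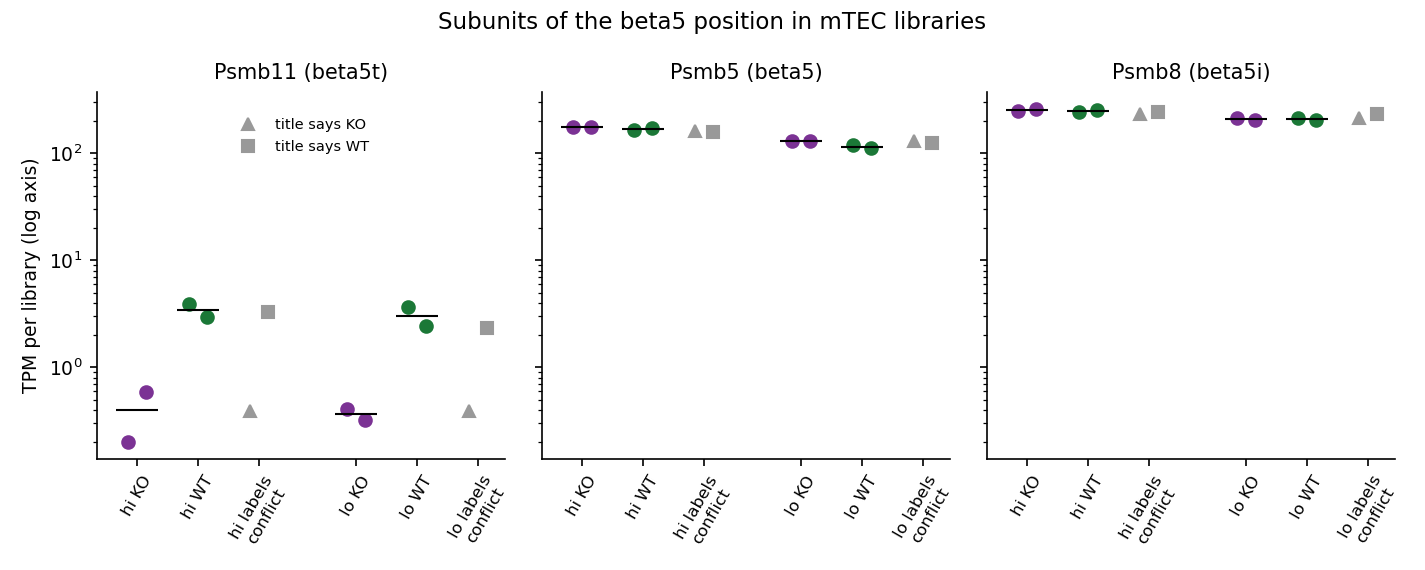
TPM of Psmb11, Psmb5 and Psmb8 in each library on a log axis, KO libraries in purple, WT libraries in green and libraries with conflicting labels in grey; black lines are the means of 2 libraries. Psmb11 lies between 0.20 and 0.59 TPM in every library titled KO and between 2.35 and 3.95 TPM in every library titled WT, while Psmb5 and Psmb8 exceed 100 TPM throughout.

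The 14 constitutive core genes were expressed at higher levels per length than the 17 genes of the 19S particle, and neither set was uniform. In mTEC hi the core genes had mean levels from 108 TPM (Psma5) to 351 TPM (Psma6), with a median of 239.0 TPM, and the 19S genes from 61.9 TPM (Psmd12) to 166 TPM (Psmc4), with a median of 116 TPM. In mTEC lo the core genes spanned 102 TPM (Psma5) to 262 TPM (Psmb4), median 174 TPM, and the 19S genes 52.2 TPM (Psmd11) to 141 TPM (Psmc3), median 108 TPM. Psma5 was the lowest alpha-ring gene in both cell types. The ATPase ring was the most even of the rings in mTEC lo: its highest gene exceeded its lowest by 1.45-fold, against 2.43-fold in the alpha ring and 2.10-fold in the beta ring. In mTEC hi these ratios were 1.59-fold for the ATPase ring, 3.26-fold for the alpha ring and 1.78-fold for the beta ring.

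Below the subunits stood the base chaperones. Psmd9 averaged 24.3 ± 2.44 TPM in mTEC hi and 24.1 ± 2.65 TPM in mTEC lo, Psmd5 averaged 31.4 ± 2.53 TPM in mTEC hi and 29.7 ± 3.70 TPM in mTEC lo, and Psmd10 averaged 48.3 ± 2.94 TPM in mTEC hi and 27.6 ± 1.53 TPM in mTEC lo (SD, n = 6 each). Psma8, the testis subunit, was near absence, with 120 reads in all 12 libraries and at most 20 in 1 library. Among the 34 members other than Psmb11 and Psma8, the coefficient of variation of CPM within a cell type was 2.23% to 8.24% in mTEC hi and 4.12% to 12.8% in mTEC lo.

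**Figure D2:**
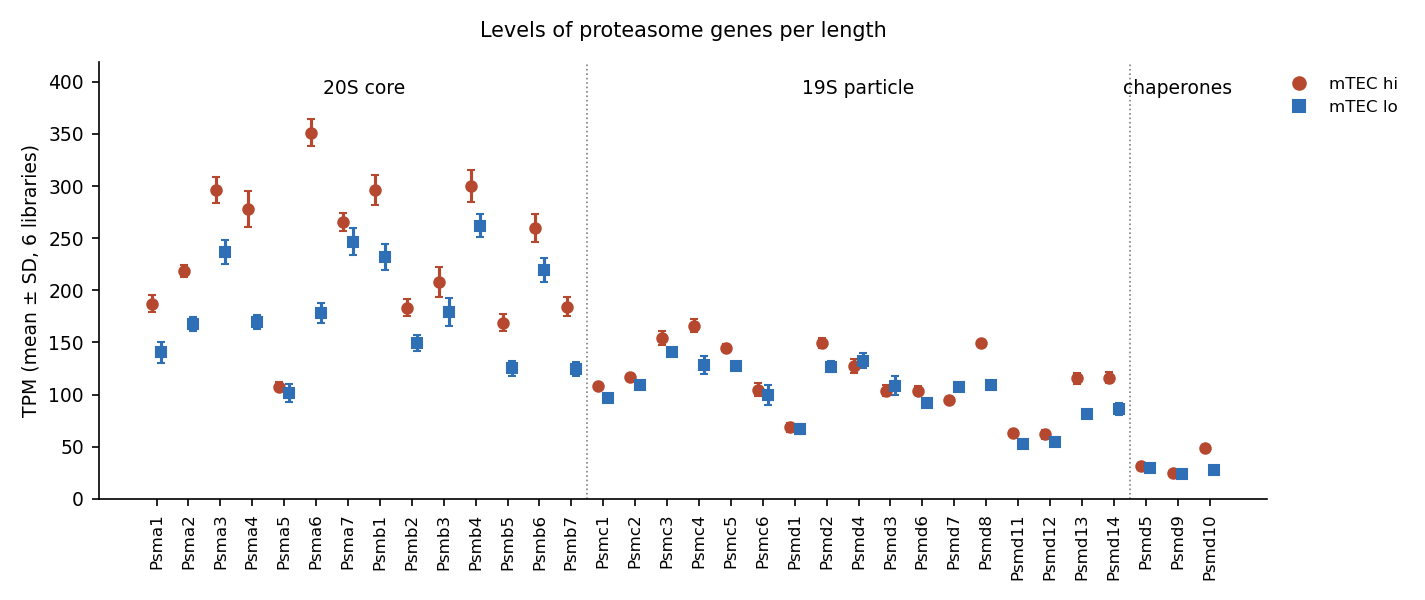
Mean TPM ± SD over 6 libraries of each cell type, for the 34 members other than Psmb11 and Psma8, with mTEC hi as red circles and mTEC lo as blue squares. The 20S core genes stand above most 19S genes, Psma6 is highest in mTEC hi at 351 TPM, and Psmd7, Psmd4 and Psmd3 alone have a lower mean in mTEC hi.

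The comparison of mTEC hi with mTEC lo asks how the proteasome genes differ between cells with high and low surface MHC class II. Relative to the other genes, most 19S genes were lower in mTEC hi, while of 14 core genes 3 were higher and 3 lower. Of 36 members 24 passed the edgeR test, beside 82.1% of all 23923 genes tested, 6 of them higher in mTEC hi (44.2% of all genes) and 18 lower (38% of all genes). The median log2 fold change was -0.11 for the members and 0.08 for all genes tested. These counts depend on the scaling between libraries. With RLE size factors 12 members were higher (46.1% of all genes) and 13 lower (35.4%), and with library size alone 25 were higher (54% of all genes) and 2 lower (26.5%). The median of all genes moved to 0.15 with RLE size factors and to 0.37 with library size alone. With RSEM counts the median was -0.03 for the members and 0.04 for all genes. The directions below are relative to TMM unless another scaling is named. In these bulk libraries fewer cells of a type and less RNA per cell cannot be told apart.

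The calls that held in the same direction under TMM, RLE size factors and library size alone were 6 higher (Psma4, Psma6, Psma8, Psmb7, Psmd8 and Psmd10) and 2 lower (Psmd4 and Psmd7). Psma6, the alpha1 subunit, showed the largest rise among genes with ample reads. It had 195 CPM at the lowest, 206 at the median and 217 at the highest in mTEC hi, and 115, 127 and 152 CPM in mTEC lo, with no overlap. Its log2 fold change was 0.67 (SE 0.06, edgeR adjusted p = 7.2e-09). Psma4, the alpha3 subunit, had 134, 150 and 153 CPM in mTEC hi and 104, 115 and 130 CPM in mTEC lo (log2 fold change 0.36, SE 0.05). Psmd10, the chaperone also called gankyrin, had 36.7, 37.9 and 41.1 CPM in mTEC hi and 25.8, 28.3 and 30.4 CPM in mTEC lo (log2 fold change 0.46, SE 0.05). In these 3 genes every mTEC hi library lay above every mTEC lo library, as in 38.5% of all genes.

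Psmb7, the trypsin-like subunit beta2, and the lid subunit Psmd8 rose by less, with log2 fold changes of 0.21 (SE 0.05) and 0.12 (SE 0.04). Without the mTEC lo library titled WT 3, Psmd8 lost its call (log2 fold change 0.09, edgeR adjusted p = 0.0519). Psma8 had a log2 fold change of 1.06 (SE 0.45, edgeR adjusted p = 0.0386) on 5 to 20 reads per library in mTEC hi and 1 to 15 in mTEC lo. It lost the call in 7 of 12 fits that each left out 1 library, and with RSEM counts it fell under the filter on low counts.

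Psmd7, a lid subunit that pairs with Psmd14, showed the largest fall. It had 84.9, 87.4 and 89.99 CPM (lowest, median and highest) in mTEC hi and 116, 127 and 134 CPM in mTEC lo, with no overlap. Its log2 fold change was -0.52 (SE 0.04, edgeR adjusted p = 4.3e-09) and -0.24 with library size alone. Psmd4, the ubiquitin receptor also called Rpn10, had 94.4, 98.1 and 99.8 CPM in mTEC hi and 116, 130 and 137 CPM in mTEC lo (log2 fold change -0.40, SE 0.04). Psmd3, a lid scaffold subunit, had 117, 123 and 133 CPM in mTEC hi and 144, 164 and 178 CPM in mTEC lo (log2 fold change -0.38, SE 0.05). In all, 11 of the 35 members other than Psmb11 had every mTEC hi library below every mTEC lo library, beside 30.3% of all genes.

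The next falls under TMM were those of Psmd1, a scaffold of the base (-0.27), the ATPase Psmc6 (-0.27), the chaperone Psmd9 (-0.27), the alpha5 subunit Psma5 (-0.24) and the chaperone Psmd5 (-0.24), each with an SE of 0.05 to 0.06. All 5 had values from 0.01 to 0.05 with library size alone, so their direction rests on the scaling. The difference between 2 members does not: Psma6 exceeded Psmd7 in log2 fold change by 1.19 under TMM, RLE size factors and library size alone, and by 1.16 with RSEM counts. The catalytic subunits Psmb5 (0.10, SE 0.06, adjusted p = 0.109) and Psmb6 (-0.07, SE 0.06, adjusted p = 0.253) did not pass the edgeR test under TMM. Psmb5 was called higher with RLE size factors (0.17, adjusted p = 0.0128), library size alone (0.39, adjusted p = 2e-06) and RSEM counts (0.18, adjusted p = 0.0041). It was also called higher with DESeq2 (adjusted p = 0.0108), with summed strand columns (adjusted p = 0.0482) and, with edgeR, over the 8 undisputed libraries (adjusted p = 0.0291) and without the mTEC lo library titled KO 3 (adjusted p = 0.0282). Psmb6 was called higher with library size alone (0.22, edgeR adjusted p = 0.000929).

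By role, 3 of 14 core genes were higher and 3 lower, beside 44.2% of all genes higher and 38% lower. The median log2 fold change of the core genes was -0.01. Of the 17 genes of the 19S particle 1 was higher and 13 lower, with a median of -0.16. In the ATPase ring 5 of 6 genes were lower (median -0.20), in the rest of the base 3 of 3 (median -0.27), and in the lid 5 of 8 were lower and 1 higher (median -0.14). With library size alone 12 core genes were higher and 0 lower, beside 54% of all genes higher and 26.5% lower. In that fit 11 genes of the 19S particle were higher and 2 lower. With RSEM counts 6 core genes were higher and 2 lower, and 4 genes of the 19S particle were higher and 7 lower, beside 42.9% of all genes higher and 38.7% lower. The core median exceeded the 19S median in each of these fits.

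**Figure D3:**
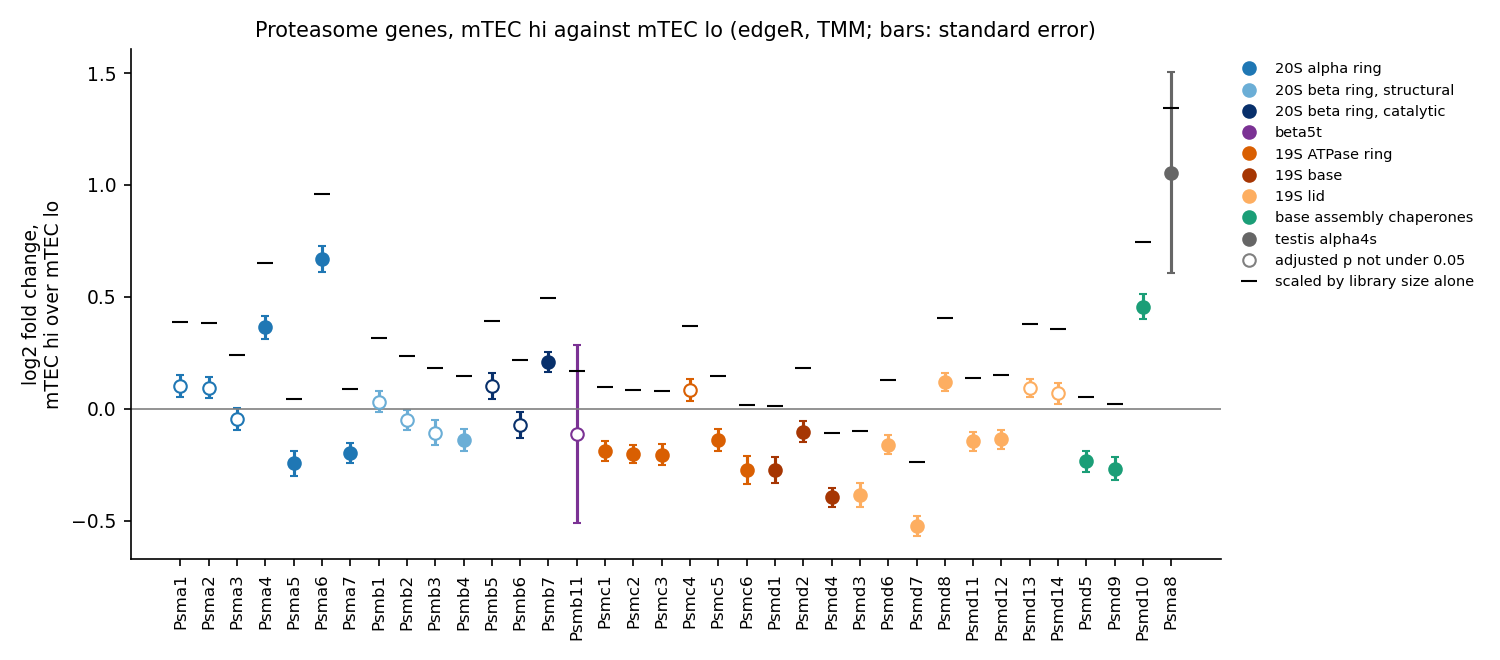
Log2 fold change of mTEC hi over mTEC lo for the 36 members (edgeR with TMM, 12 libraries; bars are standard errors), coloured by role, with open circles where the adjusted p was not under 0.05 and black dashes for scaling by library size alone. Psma6 and Psmd10 stand highest among genes with ample reads and Psmd7 lowest, and the dashes lie above the circles throughout.

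The ratio of the mean TPM per core gene to the mean TPM per 19S gene needs no scaling between libraries. It was 2.06 ± 0.058 in mTEC hi and 1.79 ± 0.0642 in mTEC lo (SD, n = 6 each), with ranges of 1.99 to 2.14 in mTEC hi and 1.72 to 1.86 in mTEC lo that did not overlap. Together the members held 0.536 ± 0.0115% of all TPM in mTEC hi and 0.434 ± 0.00868% in mTEC lo (SD, n = 6 each). On this scale 33 of 36 members had a higher mean in mTEC hi, against 13 of 36 in CPM scaled by TMM. In reads the members held 0.400 ± 0.0147% of all gene reads in mTEC hi and 0.343 ± 0.0156% in mTEC lo. These shares are relative to all other transcripts of a library and give no amount per cell.

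**Figure D4:**
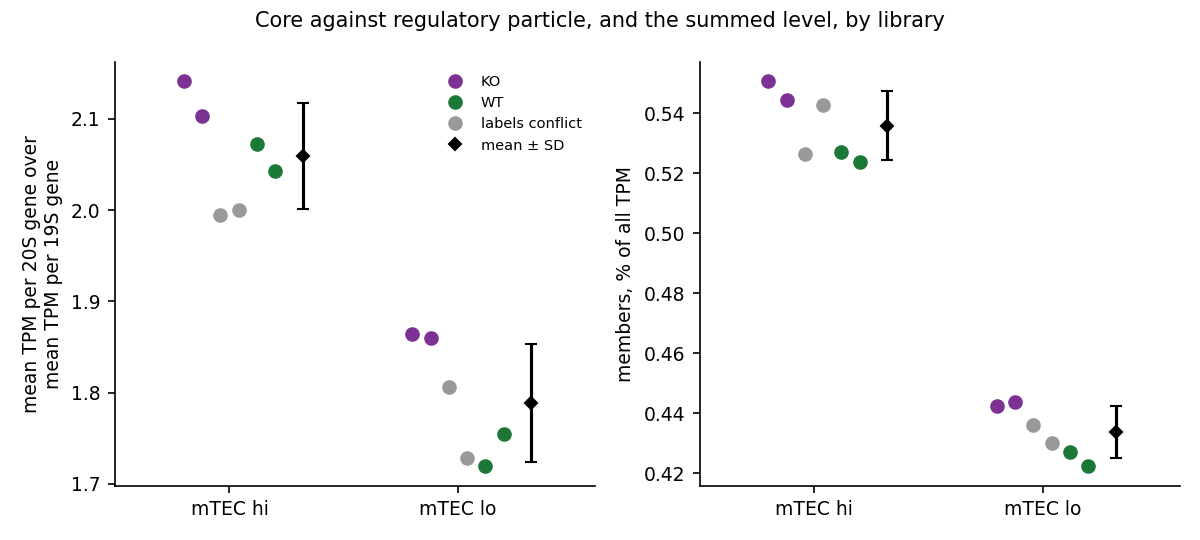
Left, the ratio of mean TPM per 20S gene to mean TPM per 19S gene in each library; right, the summed TPM of the 36 members as a percentage of all TPM, with KO libraries in purple, WT in green, conflicting labels in grey and diamonds for the mean ± SD of 6 libraries. The ratio spans 1.99 to 2.14 in mTEC hi and 1.72 to 1.86 in mTEC lo, and both measures separate the cell types; the axes do not start at 0.

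Of the marker lists, all 10 mTEC genes were detected, and their summed level was 10209 to 10954 CPM in mTEC hi and 9279 to 11279 CPM in mTEC lo. Behind these sums 6 genes were higher and 3 lower: Aire, which drives the expression of tissue-restricted genes in mTECs, had 1672 to 2254 CPM in mTEC hi and 11.1 to 26.04 CPM in mTEC lo, and the keratin Krt5 had 623 to 834 CPM in mTEC hi and 3949 to 5084 CPM in mTEC lo. Markers of other cell types also differed between mTEC hi and mTEC lo, where 44.2% of all genes were higher and 38% lower. The 6 listed B cell genes all rose (sums of 69.1 to 73.6 CPM in mTEC hi and 11.5 to 17.7 CPM in mTEC lo), and so did 10 of 11 dendritic cell and macrophage genes (554 to 608 CPM in mTEC hi and 71.0 to 98.4 CPM in mTEC lo). Most of the latter sum in mTEC hi was Lyz2, with 404 to 450 CPM in mTEC hi and 28.4 to 51.8 CPM in mTEC lo. The 6 erythroid genes rose as well (18.6 to 22.3 CPM in mTEC hi and 1.29 to 4.96 CPM in mTEC lo), and of 14 thymocyte genes 7 rose and 1 fell (238 to 388 CPM in mTEC hi and 117 to 199.6 CPM in mTEC lo). Of 11 genes of cortical thymic epithelium 5 were higher and 5 lower (2842 to 3122 CPM in mTEC hi and 3861 to 4586 CPM in mTEC lo). The fibroblast and pericyte list had 3 of 7 genes higher and 3 lower, and the endothelial list 3 of 5 lower. No marker was at 0 in any mTEC hi library, while the B cell gene Ms4a1 and the erythroid genes Hbb-bt and Hba-a1 were at 0 in 1 or 2 mTEC lo libraries. Whether these transcripts came from other cells or from the sorted mTECs was not tested, nor was their part in the proteasome values.

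Between genotypes Psmb11 was the only member that passed the edgeR test in either cell type. In mTEC hi 1 of 36 members was called, beside 0.00375% of 26642 genes, and in mTEC lo 1 of 36, beside 0.015%. The other 35 members leaned upwards by small amounts. In mTEC hi all 35 had a log2 fold change of KO over WT above 0, from 0.02 (Psmd3) to 0.18 (Psmb5), with a median of 0.10, while 51.3% of all genes were above 0. In mTEC lo 32 of 35 were above 0, with a median of 0.12, while 47.6% of all genes were above 0. The exceptions were Psma8 (-0.15 on 1 to 6 reads in these libraries), Psmd9 and Psmd1 (each within 0.01 of 0). In each cell type both KO libraries exceeded both WT libraries for 23 of the 35, beside 18.5% of all genes in mTEC hi and 18.6% in mTEC lo. The members share libraries and are not replicates of a genotype, so no test was made over them.

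At an unadjusted p under 0.05, edgeR found 1 of 36 members in mTEC hi (Psmb11), beside 3.45% of all genes, and 7 of 36 in mTEC lo, beside 11.3%. Apart from Psmb11, the 6 in mTEC lo were all core genes. The lowest p belonged to Psma5, the alpha5 subunit, which had 84.5 and 90.1 CPM in KO mTEC lo and 68.2 and 69.0 CPM in WT mTEC lo. Its log2 fold change was 0.34 (SE 0.09, edgeR adjusted p = 0.208). DESeq2 called Psma5 (adjusted p = 0.0485), in a fit that called 158 of 26642 genes, beside 4 with edgeR. The library titled KO 3 had 78.7 CPM and the library titled WT 1 had 66.7 CPM, in the same order. Psma1 had a log2 fold change of 0.26 (SE 0.08), the structural beta subunit Psmb3 0.25 (SE 0.09) and Psmb7 0.22 (SE 0.08) in mTEC lo.

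In mTEC hi Psmb4, the beta7 subunit, had the lowest p after Psmb11. It had 169.5 and 167.6 CPM in KO libraries and 148.9 and 155.1 CPM in WT libraries (log2 fold change 0.16, SE 0.08, edgeR adjusted p = 1). The libraries with conflicting labels did not extend this: the one titled KO 3 had 143.9 CPM and the one titled WT 1 had 146.6 CPM. Psmb2 and Psma1 had log2 fold changes of 0.15 each (SE 0.08).

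Psmb5, the subunit that beta5t replaces, had 40.5 and 41.2 CPM in KO mTEC hi and 35.8 and 36.8 CPM in WT mTEC hi. In mTEC lo it had 33.7 and 39.8 CPM in KO libraries and 32.6 and 30.7 CPM in WT libraries. Its log2 fold change was 0.18 in mTEC hi (SE 0.10, edgeR adjusted p = 1) and 0.21 in mTEC lo (SE 0.10, adjusted p = 0.458), so neither passed. Psmb6 stood at 0.10 in each cell type (SE 0.09), and Psmb7 at 0.14 (SE 0.08) in mTEC hi.

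The core genes had larger values of KO over WT than the 19S genes, with medians of 0.13 against 0.06 in mTEC hi and 0.19 against 0.10 in mTEC lo. The ratio of core to 19S level in TPM was 2.14 and 2.10 in KO mTEC hi and 2.07 and 2.04 in WT mTEC hi. In mTEC lo it was 1.86 and 1.86 in KO libraries and 1.72 and 1.75 in WT libraries. With conflicting labels it was 1.99 in the mTEC hi library titled KO 3 and 1.9997 in the one titled WT 1, both below all undisputed mTEC hi libraries. In mTEC lo it was 1.81 in the library titled KO 3 and 1.73 in the one titled WT 1.

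**Figure D5:**
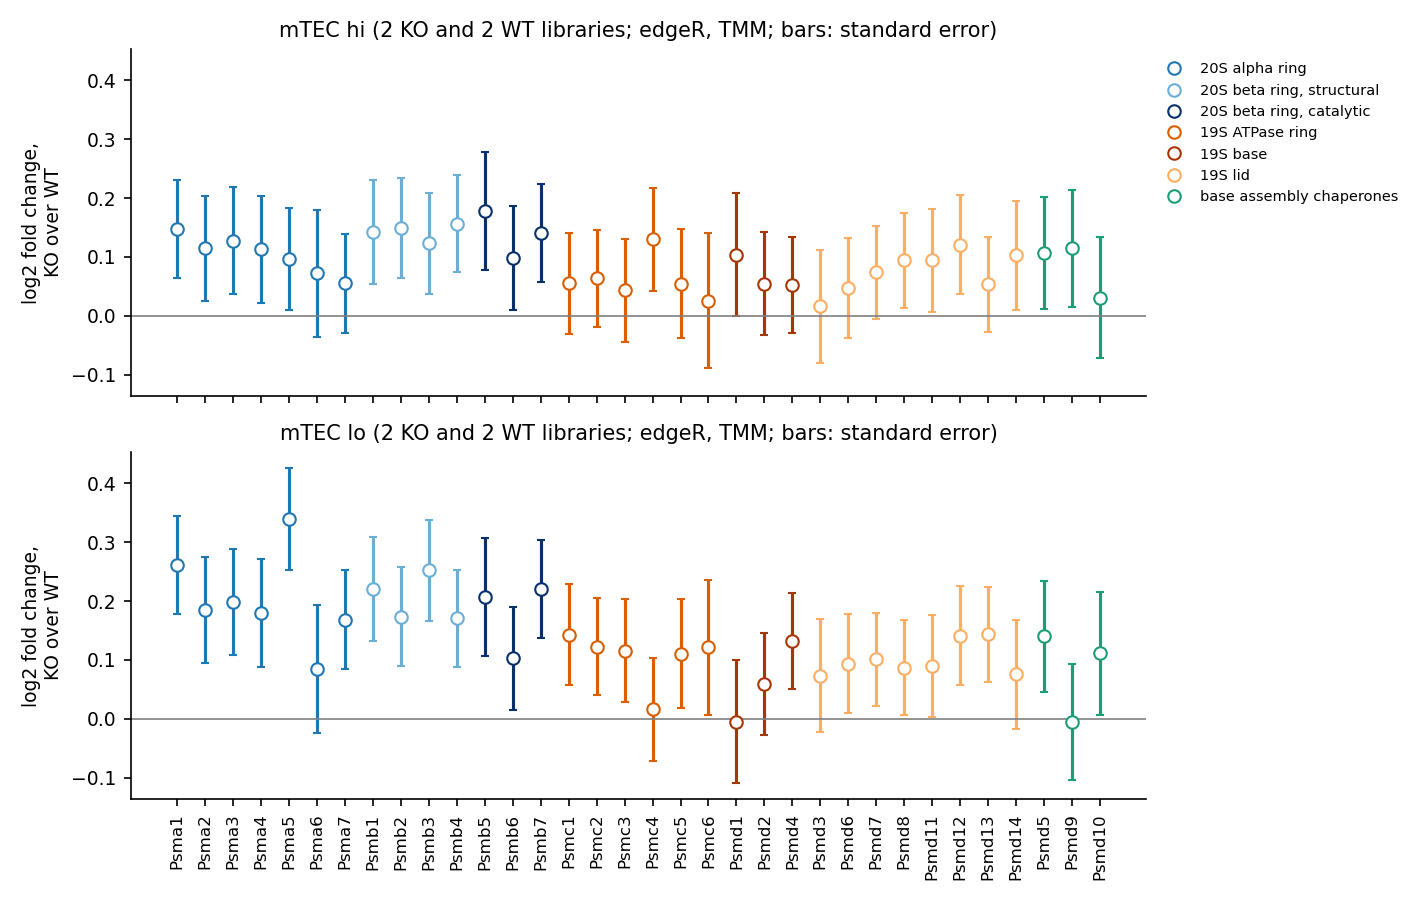
Log2 fold change of KO over WT in mTEC hi (top) and mTEC lo (bottom) for the 34 members other than Psmb11 and Psma8 (edgeR with TMM, 2 libraries per group; bars are standard errors), coloured by role. All points of mTEC hi lie above 0 and none reaches 0.2. In mTEC lo the core genes on the left other than Psma6 (0.08) and Psmb6 (0.10) stand highest, led by Psma5 at 0.34. None of the genes shown passed the test.

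Taken by the genotype and number in the titles, which lets all 12 libraries enter, the lean varied between pairs. For number 2, whose labels agree, 30 of 35 members were above 0 in mTEC hi (49.6% of all genes) and 32 of 35 in mTEC lo (43.3% of all genes). For number 1, with a conflicting library on the WT side, 30 of 35 were above 0 in mTEC hi (50.3%) and 28 of 35 in mTEC lo (42.6%). For number 3, with a conflicting library on the KO side, 18 of 35 were above 0 in mTEC hi (48.9%) and 34 of 35 in mTEC lo (53.4%).

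Thymocyte gene levels and the share of reads outside genes differed between the undisputed KO and WT libraries, and their part in the lean of the members was not tested. The summed level of 14 thymocyte genes was 253 to 388 CPM in KO mTEC hi and 240 to 246 CPM in WT mTEC hi, and 151 to 200 CPM in KO mTEC lo and 117 to 123 CPM in WT mTEC lo. With edgeR 0 of the 14 genes passed the test between genotypes in either cell type. With conflicting labels the sum was 238 CPM in the mTEC hi library titled KO 3 and 306 CPM in the one titled WT 1, and 139 CPM in the mTEC lo library titled KO 3 and 162 CPM in the one titled WT 1, so by title the genotypes overlapped in both cell types. None of the 14 was at 0 in any library. Of mapped reads, those outside annotated genes made up 14.6% and 13.3% in KO mTEC hi and 16.1% and 15.7% in WT mTEC hi. In mTEC lo they made up 9.99% and 7.54% in KO libraries and 10.3% and 10.99% in WT libraries. Among libraries with conflicting labels, the share in mTEC hi was 15.1% when titled KO 3 and 15.9% when titled WT 1. In mTEC lo it was 8.97% in the library titled KO 3 and 11.3% in the one titled WT 1. By title, every KO library lay below every WT library in both cell types.

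The interaction asks whether the genotype difference itself differed between the cell types. With edgeR 0 of 36 members and 0 of 26642 genes (0%) passed; at an unadjusted p under 0.05 there were 0 members and 4.41% of genes, and DESeq2 called 0 members and 9 genes. Psma5 had the lowest p (difference of log2 fold changes -0.24, SE 0.12, adjusted p = 0.9998), followed by Psmb3 (-0.13, SE 0.12), Psma7 and Psma1 (-0.11 each, SE 0.12). For Psmb11 the difference was -0.26 (SE 0.41), and for the catalytic subunits it was -0.03 (Psmb5, SE 0.14), -0.00446 (Psmb6, SE 0.12) and -0.08 (Psmb7, SE 0.12).

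Of 24 genes that assemble, activate or control the proteasome 5 were higher in mTEC hi and 11 lower, beside 44.2% and 38% of all genes. With TMM 14 of the 24 values were below 0, and with library size alone 6 of the 24. Psme2 rose with a log2 fold change of 1.13 (SE 0.05) and Psme1 with 0.38 (SE 0.04), which together form the interferon-inducible PA28 cap. Psme3, the nuclear PA28 gamma cap, rose with 0.82 (SE 0.04), and Uchl5, a deubiquitinating enzyme of the 19S base, with 0.32 (SE 0.06). The ubiquitin shuttle genes Ubqln4 (-1.01, SE 0.05) and Ubqln2 (-0.97, SE 0.04) fell. The core assembly chaperone Pomp had a log2 fold change of 0.00 (SE 0.05). Of the 3 inducible catalytic subunits Psmb10 was higher, and Psmb9 and Psmb8 were lower. Psmb8 had a log2 fold change of -0.17 under TMM and 0.12 with library size alone, and its mean level was 248 TPM in mTEC hi and 215 TPM in mTEC lo, so its direction rests on the scaling.

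Under TMM all 8 genes of the list on proteasome gene transcription were called lower in mTEC hi, as were 38% of all genes. The median log2 fold change was -0.56 under TMM and -0.27 with library size alone, and all 8 values were below 0 under both. With library size alone Ddi2 (-0.02), Mafg (-0.05) and Maff (-0.06) were near 0. In TPM Ddi2 averaged 26.1 in mTEC hi and 24.7 in mTEC lo, and Mafg averaged 38.9 in mTEC hi and 34.8 in mTEC lo. The other means were lower in mTEC hi, so the direction of Ddi2 and Mafg rests on the scaling. Nfe2l2, which encodes NRF2, had a log2 fold change of -1.37 (SE 0.05), and Nfe2l1, which encodes NRF1, -0.76 (SE 0.06). Nfe2l1 had 201 to 254 TPM in mTEC hi and 247 to 329 TPM in mTEC lo. Nfe2l2 had 43.8 to 51.7 TPM in mTEC hi and 92.8 to 99.9 TPM in mTEC lo, with no overlap. None of these 35 genes outside the membership passed the edgeR test between genotypes in either cell type. In log2 fold change of KO over WT, 51.3% of all genes were above 0 in mTEC hi and 47.6% in mTEC lo. Of the 24 assembly and regulator genes 20 were above 0 in mTEC hi and 17 in mTEC lo. The 3 inducible catalytic subunits were above 0 in both cell types. Of the 8 transcription genes 0 were above 0 in mTEC hi and 3 in mTEC lo.

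The way reads are counted limits some members. Counts without strand drop reads where genes on opposite strands overlap. For Psmb7 the strand columns summed to 2.01 times the column used, and 405 of its exonic bases are shared with genes on the other strand (Nek6 and Gm13586), so about as many reads were left out as were counted. For Psmb5 the RSEM count was 0.951 of the read count, beside 0.454 for Psmb11, and 109 of its exonic bases are shared with Mir686 on the same strand. The strand columns summed to 1.104 times the column used for Psma4 and to 1.06 times for Psmd3. Between 1 and 22 reads in all 12 libraries fell on each of the 4 annotated pseudogenes of Psmb5, Psmb6 and Psmb7.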

How the data were processed

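RNA sequencing libraries of mTEC hi and mTEC lo from Psmb11-deficient and WT mice were analysed, 6 of each cell type. The cortical cells and thymocyte subsets of the study were not analysed here. The authors deposited read counts per gene (whole numbers, not normalised, without strand and per strand), expected counts and TPM from RSEM. Tools in the submitters' processing notes were CASAVA 1.8.2, STAR 2.5.1b and RSEM 1.2.28, with the build name GRCh38 although gene identifiers are from mouse, and with an annotation release not given in the sources used here. Rows that name no gene were left out; reads outside genes made up 7.54% to 16.1%. Of 50600 identifiers 50376 were matched to symbols in GENCODE M21 by stable identifier, 45737 with the same version.

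Reads without strand were filtered (filterByExpr, count minimum 10, total minimum 15), scaled by TMM and tested in edgeR 4.0.16 by its quasi-likelihood F test in R 4.3.3, with Benjamini-Hochberg adjustment over all genes tested and a threshold of 0.05. All 36 members passed the filter. The cell type comparison used 12 libraries and had the genotype class (KO, WT or conflicting) as covariate, and the genotype comparisons used 8 libraries in 1 model of 4 groups. An SE is the size of the log2 fold change divided by the square root of F. The biological coefficient of variation common to all genes was 0.115 (12 libraries) or 0.125 (8 libraries). RSEM counts were rounded. DESeq2 1.42.0 was an alternative. The fits were tested on simulated data. Alternatives were RLE size factors, library size alone, no filter, RSEM counts, summed strand columns, a minimum change of 1.5-fold, genotype from the title or source name, the replicate block, other sets of libraries and leaving out each library.

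The members and gene lists were chosen with earlier results of these data known. Named in full were Psmb11, Psmb5, Psmb6 and Psmb7, called members with the 8 largest changes per direction between cell types, called members and the 4 lowest p between genotypes, and the 4 largest changes per direction among other proteasome genes outside Psmb8 to Psmb10. Psme1, Pomp and the values outside this rule were chosen after they were seen. Of 25 assembly and regulator genes listed 24 were matched. Promoters are from RefSeq on GRCm38.p6. Protein sequences were not compared.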

Additional observations from a re-analysis of the deposited data

Results flagged for a closer look

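Among 72 checks of a member in the 6 libraries of a cell type, 3 libraries stood apart from the other 5 by Dixon's criterion, which chance alone meets in about 1 in 20 groups. Psma4 in mTEC hi had 133.7 CPM in the library titled WT 3, and the other 5 libraries had 149.3 to 153.5 CPM. Psmd11, a lid subunit, had 97.2 CPM in mTEC lo in the library titled KO 1, and the others had 85.6 to 88.5 CPM. Psmd9 had 31.4 CPM in mTEC lo in the library titled KO 3, and the others had 27.1 to 28.2 CPM.

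The 4 libraries with conflicting labels enter no main comparison of genotypes. In 2 of them Psmb11 exceeded the highest level of any undisputed KO library, 1.63 CPM. It had 8.16 CPM in the mTEC hi library titled WT 1 and 7.10 CPM in the mTEC lo library titled WT 1, although the source name and strain of both name the Psmb11-deficient genotype.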

How the results depend on the processing

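The cause of each change named here was not tested. With genotype taken from the source name, Psmb11 had log2 fold changes of KO over WT of -0.86 in mTEC hi (adjusted p = 0.999) and -1.10 in mTEC lo (adjusted p = 0.909), and 0 members were called in each. In mTEC lo DESeq2 called 2 members, beside 158 of 26642 genes. Leaving out 1 library gave Psmb11 between -3.39 and -2.77 in mTEC hi, where 2 of 8 such fits lost the call and 0 to 1 members were called, and between -3.10 and -2.44 in mTEC lo, with 1 member called each time. Apart from the source name, every alternative that left out no single library kept the Psmb11 call in both cell types, and no alternative called a member in the interaction.

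Between mTEC hi and mTEC lo 6 members were higher and 18 lower as reported, beside 44.2% and 38% of all genes. The number higher was 12 with RLE size factors (46.1% of all genes), 25 with library size alone (54%) and 11 with RSEM counts (42.9%). It was 12 with DESeq2, beside 11032 of 23923 genes, and 11 with summed strand columns, beside 11165 of 25213 genes. With a minimum change of 1.5-fold 1 member was higher, beside 8497 of 23923 genes, and 0 were lower, beside 4461 genes. The number lower was 2 with library size alone (26.5% of all genes) and 11 with RSEM counts (38.7%). The median was -0.0437 with RLE size factors, 0.17 with library size alone and -0.0281 with RSEM counts. Leaving out 1 library gave 4 to 9 members higher, 17 to 19 lower and medians from -0.16 to -0.09. The members' share in mTEC hi over mTEC lo was 1.24 in TPM and 1.17 in reads.

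Some signs turned with the setting. Psmb11 between the cell types was 0.17 with library size alone and 0.00858 with RSEM counts, and -0.62 to 0.19 with 1 library left out; it was 0.11 without the mTEC hi library titled KO 3 and 0.19 without the mTEC lo library titled WT 1. With library size alone Psma5 was at 0.0430, Psmb6 at 0.22, Psmc6 at 0.0151, Psmd1 at 0.0140, Psmd5 at 0.0514 and Psmd9 at 0.0189, and Psmb6 was at 0.0121 over the 8 undisputed libraries. In the interaction, genotype from the source name gave Psmb5 0.0494, Psmb6 0.0834 and Psmb7 0.0154, and library size alone gave Psmb6 0.0056; with 1 library left out Psmb5 spanned -0.157 to 0.0978 and Psmb6 -0.0791 to 0.0652.

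Deviations of same-titled mTEC hi and mTEC lo libraries correlated weakly, by 0.009 to 0.117 over 6 pairs. Pairs of different titles spanned -0.097 to 0.076, and 3 of 6 mTEC hi libraries correlated best with their own title. The main fit of the cell types took no pairing into account. With the replicate block the cell types had 5 members higher and 18 lower, beside 10488 genes higher and 8980 lower of 23923. With genotype from the title and the replicate block, 1 member was called in mTEC hi (Psmb11, -2.98) and 1 in mTEC lo (Psmb11, -2.67). Psma8, with at most 20 reads in a library, is limited by depth.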
